A study of Mus musculus with 2 samples.

Results

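The granins and the enzymes that process prohormones were described in the adrenal gland as a set of 10 genes, out of 55536 genes in the tables. They are Chga, Chgb, Scg2, Scg3, Scg5, Vgf, Pcsk1, Pcsk2, Cpe and Pcsk1n, a set chosen by function and matched by symbol, and each matched 1 gene identifier. Total RNA was sequenced from adrenal gland of female mice at 8 to 10 months of age, from a cross of the 5xFAD strain with CAST. The 5xFAD strain is a transgenic model of Alzheimer's disease whose transgenes are driven by the Thy1 promoter, which acts mainly in neurons, and CAST is a wild-derived inbred strain. All samples shared 1 strain label and 1 age range, and the labels do not say which animals inherited the transgenes. The group had 2 biological replicates, here mouse 1 and mouse 2 by replicate number. Their donor identifiers were identical, so only the replicate numbers mark them as separate animals, and differences between the libraries may be technical. The p-values set the difference between these libraries against counting noise alone, and measure no spread between libraries or animals. There was no second group, so what can be compared is the genes with one another, mouse 1 with mouse 2, and 2 quantifications of each library.

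Granins are acidic proteins of the regulated secretory pathway. They condense in the trans-Golgi network with calcium, help to form the core of the secretory granule, and are cut into bioactive peptides. In the chromaffin cells of the adrenal medulla they are stored and released together with catecholamines and neuropeptides. Prohormone convertases cut precursors after pairs of basic residues, and carboxypeptidase E then trims those residues from the new end. Binding proteins restrain or help the convertases until the granule has acidified.

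The start regions of several of these genes are known to hold a cAMP response element, the binding site of CREB. Promoter windows from RefSeq (build GRCm38.p6, the assembly that mm10 names) covered 250 bases before to 50 bases after the start. They were listed for 8 of the 10 genes, all but Vgf and Cpe. The full palindrome TGACGTCA lay in the windows of 3 of these 8, Chgb, Scg2 and Pcsk1, against 2.03% of all 27025 genes with a window. Its first 6 letters, TGACGT, searched on both strands and contained in the palindrome, lay in the windows of 5 of the 8, against 8.37% of all genes. Chga and Scg5 were the additional ones, and the letters were not in the windows of Scg3, Pcsk2 and Pcsk1n. A match is a run of letters, not a known site of binding in this tissue. The 30 bases around each match before the RefSeq start are given 5′ to 3′ on the gene's strand, with the matched letters in capitals, because they are a feature that part of the set shares.
Chga, chr12:102554885-102554914, plus strand: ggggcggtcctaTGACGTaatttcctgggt
Chgb, chr2:132781559-132781588, plus strand: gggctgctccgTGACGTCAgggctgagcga
Scg2, chr1:79440076-79440105, minus strand: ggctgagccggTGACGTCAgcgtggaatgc
Pcsk1, chr13:75089768-75089797, plus strand: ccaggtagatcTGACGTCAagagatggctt
Pcsk1, chr13:75089795-75089824, plus strand: ctttcgtcgattTGACGTgtaaacactcat
Scg5, chr2:113829249-113829278, minus strand: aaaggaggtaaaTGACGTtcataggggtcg

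Counted from the RefSeq start, the palindrome began at base -72 in Chgb, at -68 in Scg2 and at -78 in Pcsk1. The 6 letters began at base -44 in Chga and at -175 in Scg5. Pcsk1 held them again at base -50, and Scg5 held them on the other strand at base 40 after the start. Start sites differed between annotations. The outermost GENCODE start lay 364 bases from the RefSeq start in Chgb, 94 bases in Scg2 and 28 bases in Chga. The Chgb stretch therefore lay inside the first exon of transcript Chgb-201, and the Scg2 stretch inside an exon of Scg2-201.

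All 10 genes were measured at 1 TPM or more in both mice. TPM is a transcript abundance scaled to length and to the summed abundance of the library, so genes of 1 library may be compared on it. Genes took 36558609 expected counts, or about as many sequenced fragments, in mouse 1 and 32192201 in mouse 2. The posterior SD of the count that the tables give was 0 for all 10 genes in both mice, so none of their counts were shared out between genes. Antisense or opposite-strand genes overlap 3 members. Pcsk2os1, which overlaps Pcsk2, had 27 and 21 counts, and Pcsk2os2, Gm37871 (at Scg3) and Eras (at Pcsk1n) had 0. Counting by strand is not stated in the sources used here.

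The set fell into 4 abundant genes and 6 that were scarce beside them. Chga, Chgb, Scg2 and Cpe together summed to 2009 TPM in mouse 1 and 1918 in mouse 2. These 4 genes took 97.2% of the summed TPM of the set in each mouse. The other 6, Pcsk1n, Scg5, Pcsk1, Scg3, Vgf and Pcsk2, summed to 57.5 and 56.1 TPM. Scarce is meant only relative to the 4 abundant genes. Among 22015 nuclear protein-coding genes Pcsk1n ranked at 3239 in mouse 1 and 4376 in mouse 2, and Scg5 at 4482 and 4861. Pcsk1 ranked at 6332 and 6134, Scg3 at 6231 and 6924, and Vgf at 9006 and 9041. The full set stood at 2020 ± 65.2 TPM (SD, n = 2). It took 0.701% of the TPM of nuclear protein-coding genes in mouse 1 and 0.611% in mouse 2.

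**Figure D1:**
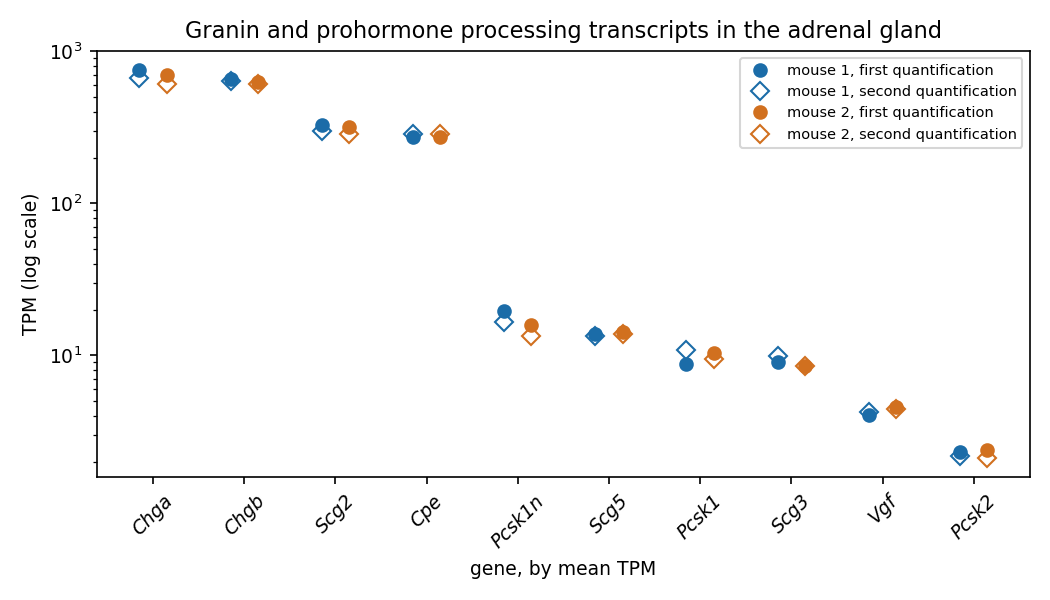
TPM of each gene on a log scale, with filled circles for the first quantification and open diamonds for the second, blue for mouse 1 and orange for mouse 2, in the order of mean TPM. Chga, Chgb, Scg2 and Cpe lie above 270 TPM in the first quantification, and the other 6 genes lie below 20 TPM in both.

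Among the granins, Chga encodes chromogranin A, the classic marker protein of chromaffin granules and the precursor of catestatin and vasostatin (chromosome 12, 102554969 to 102565028, plus strand, mm10). It stood at 751 TPM in mouse 1 and 703 in mouse 2, a mean of 727 ± 34.1 TPM (SD, n = 2). Its rank among nuclear protein-coding genes was 13 in mouse 1 and 17 in mouse 2. Chgb, chromogranin B (chromosome 2, 132781278 to 132795079, plus strand), stood at 656 and 626 TPM and ranked at 16 and 22. Scg2, secretogranin II, the precursor of secretoneurin (chromosome 1, 79434669 to 79440120, minus strand), stood at 328 and 317 TPM and ranked at 72 and 90. In this quantification the 3 granins kept their order in both mice, with no overlap between the mice of neighbouring genes.

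The remaining granins were scarce beside Chga, Chgb and Scg2. Scg3, secretogranin III, which binds chromogranin A and cholesterol in the granule membrane (chromosome 9, 75643189 to 75684056, minus strand), stood at 8.98 and 8.47 TPM. Vgf, a granin-like precursor of neuroendocrine peptides whose gene responds to nerve growth factor (chromosome 5, 137026392 to 137033351, plus strand), stood at 4.08 and 4.56 TPM. These levels rested on 758 and 585 counts for Scg3 and on 408 and 372 counts for Vgf. The counting interval (95%, exact Poisson) of Vgf was 3.69 to 4.50 TPM in mouse 1 and 4.11 to 5.05 TPM in mouse 2, so the mice overlapped. Chga exceeded Scg3 83.6-fold in mouse 1 and 83.0-fold in mouse 2, and Vgf 184-fold and 154-fold.

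Of the processing enzymes, only the exopeptidase was abundant. Cpe, carboxypeptidase E (chromosome 8, 64592542 to 64693054, minus strand), stood at 274 TPM in mouse 1 and 272 in mouse 2, a mean of 273 ± 0.912 TPM (SD, n = 2), and ranked at 113 and 123. The endoproteases stood far below it. Pcsk1, prohormone convertase 1/3 (chromosome 13, 75089826 to 75134861, plus strand), stood at 8.75 and 10.4 TPM, from 1748 and 1602 counts. Pcsk2, prohormone convertase 2 (chromosome 2, 143546156 to 143816285, plus strand), stood at 2.30 and 2.39 TPM, from 431 and 359 counts. It was the lowest of the 10 and ranked at 10430 and 10578 among nuclear protein-coding genes, 11913 of which reached 1 TPM in both mice.

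Within each library, Cpe exceeded Pcsk1 31.3-fold in mouse 1 and 26.1-fold in mouse 2. In the second quantification this was 26.3-fold and 30.5-fold, so the order of the mice was opposite there. Cpe exceeded Pcsk2 119-fold and 114-fold in the first quantification. Pcsk1 in turn exceeded Pcsk2 3.80-fold (95% exact interval 3.42 to 4.24) in mouse 1 and 4.36-fold (3.89 to 4.91) in mouse 2. The intervals cover counting error alone. Fragments carried no molecular identifier and may be copies, in which case the intervals are too narrow. The intervals of the 2 mice overlap, and the second quantification gave 4.94-fold in mouse 1 and 4.42-fold in mouse 2, the opposite order. Whether the Pcsk1 to Pcsk2 ratio changed between the mice was not tested and is not settled by these values.

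Each convertase has a known binding protein in the set. Pcsk1n encodes proSAAS, an inhibitor of prohormone convertase 1/3 (chromosome X, 7919822 to 7924410, plus strand), and stood at 19.4 TPM in mouse 1 and 15.9 in mouse 2. Scg5 encodes 7B2, a chaperone and inhibitor of prohormone convertase 2 (chromosome 2, 113776362 to 113829121, minus strand), and stood at 13.9 and 14.3 TPM. Both binding proteins stood above their convertases in each mouse. Pcsk1n exceeded Pcsk1 2.22-fold (95% exact interval 2.08 to 2.38) in mouse 1 and 1.53-fold (1.41 to 1.65) in mouse 2. These intervals do not overlap. In the second quantification the ratio was 1.53 in mouse 1 and 1.43 in mouse 2, so its size in mouse 1 depended on the quantification. Scg5 exceeded Pcsk2 6.04-fold (5.34 to 6.85) and 5.97-fold (5.21 to 6.85), with intervals that overlap almost fully.

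By mean TPM the order was Chga, Chgb, Scg2, Cpe, Pcsk1n, Scg5, Pcsk1, Scg3, Vgf and Pcsk2. The widest step was from Cpe to Pcsk1n, at 15.4-fold, followed by Scg3 to Vgf at 2.02-fold and Chgb to Scg2 at 1.98-fold. Pcsk1 and Scg3, 1.10-fold apart, were the neighbours whose values overlapped between the mice. In the second quantification Chga and Chgb, Scg2 and Cpe, Pcsk1n and Scg5, and Pcsk1 and Scg3 overlapped. It placed Chga at 664 and 610 TPM and Chgb at 640 and 611 TPM, so the order of those 2 genes depended on the quantification. The step from Cpe to Pcsk1n was 19.0-fold there, followed by Chgb to Scg2 at 2.15-fold and Scg3 to Vgf at 2.12-fold, in the opposite order.

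Other genes of the same pathway were taken from lists chosen by function. Of 7 other proprotein convertases, 6 reached 1 TPM in both mice. Pcsk5 stood at 60.2 TPM in mouse 1 and 63.4 in mouse 2, and Furin, a convertase of the trans-Golgi network, at 48.7 and 54.2 TPM. Mbtps1, the site-1 protease, stood at 30.6 and 34.4 TPM and Pcsk7 at 9.81 and 10.5 TPM. Pcsk5, Furin and Mbtps1 lay above Pcsk1 and Pcsk2 in both mice, as did Pcsk7, narrowly in mouse 2 (10.49 against 10.43 TPM for Pcsk1). These enzymes are made by many cell types, and bulk tissue does not tell which cells the reads came from.

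Among 7 relatives of Cpe, Aebp1, a matrix protein without known peptidase activity, led at 220.5 and 185 TPM. Cpd, a carboxypeptidase of the trans-Golgi network, stood at 10.2 and 13.1 TPM, Cpm at 5.71 and 8.63 TPM and Cpxm2 at 4.50 and 4.31 TPM. Cpe exceeded each relative in both mice. Of 6 other maturation enzymes all reached 1 TPM. Ctsb, a lysosomal protease, stood at 501 and 411 TPM, Pam, which amidates peptide ends, at 103 and 121.5 TPM, Ctsl, which has also been found in chromaffin granules, at 96.8 and 114 TPM and Rnpep, an aminopeptidase, at 13.5 and 15.4 TPM.

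Of 12 genes of granule assembly and release, 11 reached 1 TPM in both mice. Cyb561, the cytochrome that carries electrons across the granule membrane, stood at 63.1 and 64.9 TPM. Rab2a, a GTPase of granule maturation, stood at 54.4 and 61.0 TPM, Rab3a, a GTPase on granules, at 25.9 and 29.3 TPM and Ptprn, the granule membrane protein IA-2, at 16.9 and 23.1 TPM. Peptide precursors, the substrates of the convertases, were mostly absent or scarce, with 5 of 21 at 1 TPM in both mice and 6 listed at 0 counts in both. Npy led at 305 and 274 TPM, followed by Gal at 20.9 and 21.6 TPM, Penk at 9.10 and 8.74 TPM and Adm at 6.10 and 6.55 TPM. Chga and Chgb stood above Npy in both mice and both quantifications. Scg2 stood above Npy in the first quantification and below it in the second, where Npy was at 353 and 318 TPM and Scg2 at 297 and 286 TPM.

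Markers of the tissue were present. Of 16 chromaffin cell genes, 14 reached 1 TPM in both mice, with Pnmt at 288 and 228 TPM, Th at 240.1 and 252 TPM, Dbh at 139 and 137 TPM and Ddc at 21.7 and 25.2 TPM. All 12 cortex genes reached 1 TPM. None of 10 pituitary and islet hormone genes did, and 8 of them were at 0 counts in both mice. The highest was Gh, with 0 and 5 counts. Neuron markers reached 1 TPM in 4 of 8 genes and Schwann and sustentacular cell markers in 3 of 8.

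The second comparison was between the mice. The log2 ratio of mouse 2 to mouse 1 was taken after TMM scaling of counts, which removes shifts in overall RNA composition, so its sign can differ from that of TPM. For each gene an exact two-sided binomial test asked whether the counts differed beyond counting noise, with p-values adjusted by Benjamini-Hochberg over 17666 genes. With 1 library a mouse it compares these libraries and not conditions. In bulk tissue, fewer cells of a type and less RNA per cell cannot be told apart.

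Of the 10 genes, 6 were lower in mouse 2 beyond counting noise, against 11.0% of all genes tested, and 0 were higher, against 10.4%. In either direction it was 6 of 10, against 21.3%. The log2 ratio lay below 0 in 8 of the 10, against 50.2% of all genes, and above it in Vgf and Pcsk1. None of the 10 was at least 2-fold apart, as 2.96% of all genes were. Abundant genes pass such a test at small ratios. Of the 9521 nuclear protein-coding genes whose mean count reached 300, 28.5% were beyond counting noise and 48.1% lay below 0. All 10 members reached that mean count. Chga, Chgb, Scg2 and Cpe are among 127 nuclear protein-coding genes whose mean count reached 15000, of which 107 (84.3%) were beyond counting noise and 78 (61.4%) lay below 0, with a median log2 ratio of -0.05.

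Chga, with 53733 counts in mouse 1 and 40577 in mouse 2, stood at a log2 ratio of -0.27 (95% exact counting interval -0.29 to -0.25, adjusted p = 1.4e-177 by the binomial test). The other abundant granins were close to it, Chgb at -0.24 (interval -0.26 to -0.23) and Scg2 at -0.23 (-0.25 to -0.20). Cpe stood at -0.16 (-0.19 to -0.14), and its interval did not overlap those of the 3 granins. All 4 were lower in mouse 2, at a linear ratio of 0.829 in Chga, 0.846 in Chgb, 0.855 in Scg2 and 0.892 in Cpe. On the TPM scale Cpe stood at 274 and 272 in the same libraries, where nuclear protein-coding genes took 29.6% of all TPM in mouse 1 and 32.5% in mouse 2.

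The largest difference of the set was in Pcsk1n, at 1657 and 1096 counts and a log2 ratio of -0.46 (interval -0.57 to -0.35, adjusted p = 5.49e-15 by the binomial test). Its convertase Pcsk1 stood at 0.01 (-0.09 to 0.11) with an adjusted p of 0.949, and the interval did not overlap that of Pcsk1n. Scg3 stood at -0.24 (-0.40 to -0.08) with an adjusted p of 0.0164 by the binomial test, and at -0.19 with an adjusted p of 0.0649 when libraries were scaled to total counts. Scg5 stood at -0.14 (-0.31 to 0.03), Pcsk2 at -0.13 (-0.34 to 0.08) and Vgf at 0.00 (-0.21 to 0.21). At 359 to 622 counts the intervals of these 3 genes include the log2 ratio of Cpe, so a difference of that size was not detectable at this depth.

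**Figure D2:**
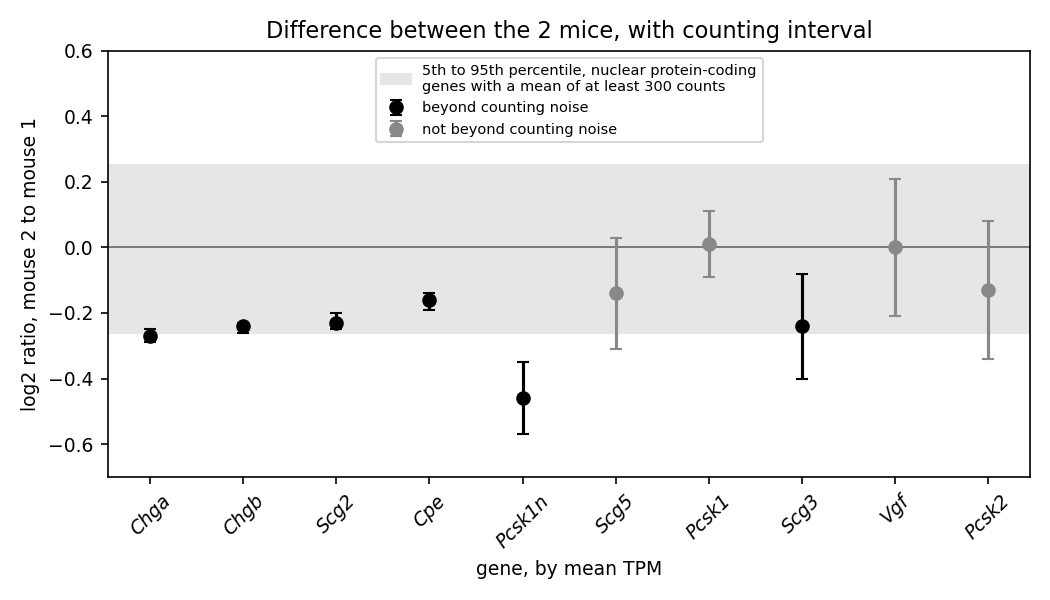
Log2 ratio of mouse 2 to mouse 1 for each gene, with bars for the 95% exact counting interval, black where the difference was beyond counting noise. The grey band is the 5th to 95th percentile of 9521 nuclear protein-coding genes whose mean count reached 300 (-0.26 to 0.25), and Chga (-0.27) and Pcsk1n (-0.46) lie below it. Over the 127 genes whose mean count reached 15000, not drawn here, the range was -0.42 to 0.36, which holds Chga.

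These differences may be set against the spread of other genes. Over the 9521 nuclear protein-coding genes whose mean count reached 300, the 5th to 95th percentile ran from -0.26 to 0.25, and 8 of the 10 members lay inside. Pcsk1n lay below this range and Chga at its edge. Over the 127 genes whose mean count reached 15000 the range was wider, from -0.42 to 0.36, and over all 14517 nuclear protein-coding genes tested it was -0.45 to 0.44. Chga lay inside both of these ranges, as did Chgb, Scg2 and Cpe, and Pcsk1n at -0.46 lay just below the last. No replicate library of either mouse was analysed, so how far 2 libraries of 1 mouse differ is not known here.

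The median log2 ratio of the 10 genes was -0.19, beside 0.00 over all genes tested. The lists of related enzymes and granule genes were nearer to 0. The median was 0.06 over 6 other convertases tested, with Pcsk6 higher (0.44) and Pcsk5 lower (-0.15) beyond counting noise. It was 0.03 over the other maturation enzymes, where Ctsb was lower (-0.43) and Pam (0.07) and Ctsl (0.08) higher. It was -0.08 over 6 carboxypeptidases, where Aebp1 (-0.51) and Cpxm1 (-1.43) were lower and Cpm (0.24) higher. Among the 12 genes of granule assembly and release the median was -0.05, and Hid1 (-0.48), Cadps (-0.26), Rab27a (-0.16) and Cyb561 (-0.10) were lower beyond counting noise and 0 higher.

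Of the peptide precursors 8 were tested, and 7 lay below 0 with a median of -0.23. Npy was lower in mouse 2 at -0.33 beyond counting noise. Penk at -0.24 (adjusted p = 0.0771), Gal at -0.13 (0.336) and Adm at -0.13 (0.516) did not pass the binomial test. Cck, with 33 and 9 counts, was the other that did, at -1.55.

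The chromaffin list had a median of -0.02, with 9 of 16 genes below 0. Pnmt (-0.51), Dbh (-0.19) and Th (-0.11) were lower beyond counting noise and none was higher. The transcription factor genes Phox2a (-0.11), Hand2 (0.07) and Gata3 (0.10), and the nicotinic receptor subunits Chrna3 (0.04) and Chrnb4 (0.03), did not pass the test.

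Other groups of genes also differed between the libraries, and their part in the values of the 10 genes was not tested. Cortex genes had a median of -0.15, with 9 of 12 lower and 2 higher beyond counting noise. Immediate early genes, which are induced within minutes by cell stimulation, had a median of -0.73 with 14 of 18 lower, down to -3.15 for Fos. Their summed level was 688 TPM in mouse 1 and 493 TPM in mouse 2. Adipocyte genes were higher in mouse 2 beyond counting noise in 9 of 10, at 1606 and 2708 TPM in sum. Red blood cell genes were lower in all 5 tested, at 747 and 409 TPM over the 6 of the list. Endothelial genes had a median of 0.06 with 1 of 8 higher, and genes of macrophages and lymphocytes 0.08 with 1 of 9 higher and 1 lower. Neuron genes had a median of -0.01 with 2 of 7 tested lower, and Schwann and sustentacular cell genes 0.05 with 1 of 7 higher.

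**Figure D3:**
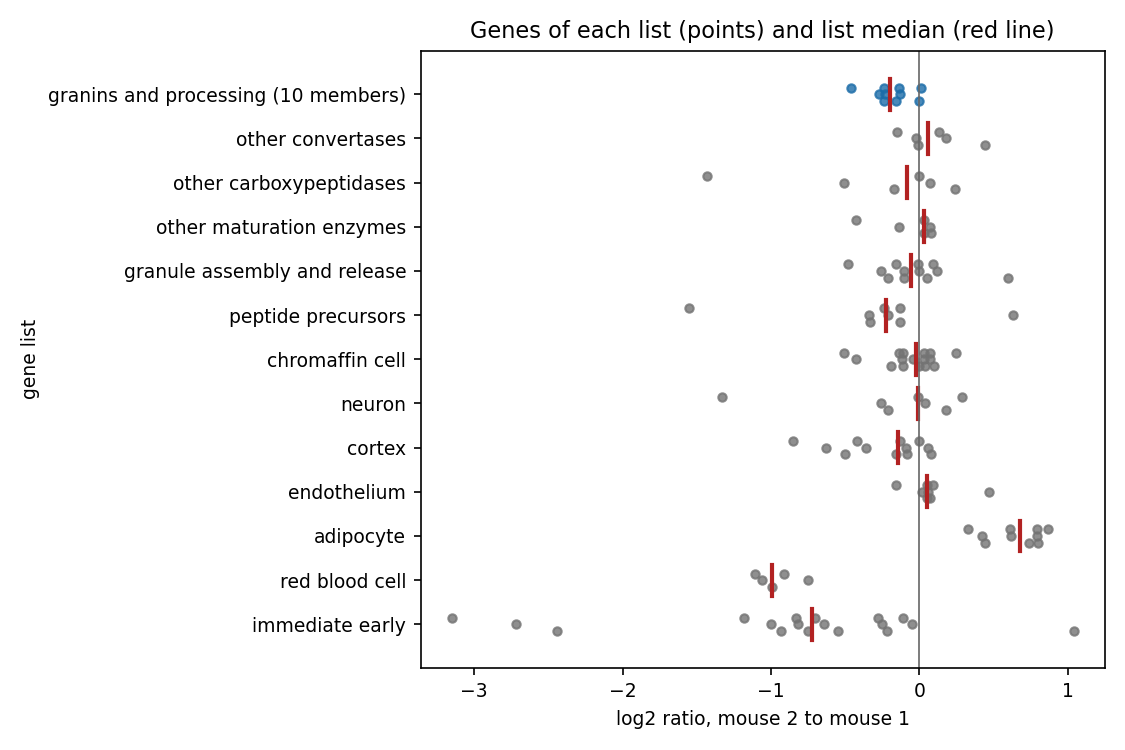
Log2 ratio of mouse 2 to mouse 1 for the tested genes of 13 lists, with 1 point per gene and a red line at the list median. The granin and processing genes (blue) lie between -0.46 and 0.01 with a median of -0.19, the chromaffin list is centred at -0.02, the adipocyte list lies wholly above 0 and the red blood cell list wholly below it.

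Shares of each gene by transcript came from the transcript tables, as a percent. Chgb and Pcsk1n have 1 annotated transcript each. Scg5-201 took 98.5% ± 0.0778 (SD, n = 2) of its gene, with 6 exons. Chga-201, with 8 exons, took 97.79% in mouse 1 and 97.76% in mouse 2. Of the rest, Chga-202 took a mean of 1.33% and Chga-203 of 0.90%, both annotated as retained introns. The second quantification gave these a mean of 1.27% and 0.74%. Most of the Chga signal therefore came from the spliced coding transcript in both.

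Scg2 was divided between 2 protein-coding transcripts. Scg2-202, with 3 exons, took 65.0% in mouse 1 and 64.4% in mouse 2. Scg2-201, with 2 exons and the outermost start (chromosome 1, 79434669 to 79440120), took 35.0% and 35.6%. The exon of Scg2-201 is the one that holds the TGACGTCA stretch printed above. In the second quantification the shares of Scg2-202 were 53.8% and 52.8%, so the lead of this transcript held in both, with a smaller margin in the second.

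For the scarce genes the shares depended more on the quantification. Scg3-202 took 73.3% and 67.4% and Scg3-201 24.5% and 31.2%, both with 12 exons. The second quantification gave Scg3-202 50.5% and 53.7%, and it gave 20.7% and 14.6% to Scg3-206, a transcript annotated for nonsense-mediated decay that had 0 counts in the first. Vgf-201 took 100% in mouse 1 and 89.0% in mouse 2, against 47.0% and 56.0% in the second quantification, where Vgf-204 took 33.3% and 31.8%. With 408 and 372 counts for the gene, the split of Vgf is uncertain.

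Pcsk2-201 took 98.3% and 94.4%, and Cpe-201 took 96.7% and 98.2%. The second quantification gave Cpe-202, a transcript with no annotated coding sequence, 19.4% and 19.8%, in place of 3.17% and 1.56%. Pcsk1-201, with 14 exons, took 99.1% in mouse 1 and 93.4% in mouse 2. In mouse 2 the short transcripts Pcsk1-202 and Pcsk1-203 took 3.59% and 2.99% from 16.2 and 3.75 counts. The mean effective length of Pcsk1 was 4907 bases in mouse 1 and 4673 in mouse 2, and TPM divides by it. This enters the higher TPM of Pcsk1 in mouse 2 (8.75 and 10.4 TPM), while its log2 ratio from counts was 0.01. Nuclear protein-coding genes also took a larger share of all TPM in mouse 2, 32.5% against 29.6% in mouse 1. The part of each in the TPM difference of Pcsk1 was not tested. In the second quantification the short Pcsk1-203 took 25.8% in mouse 1 and 0% in mouse 2, and Pcsk1 stood at 10.8 and 9.42 TPM. The order of the mice in the TPM of Pcsk1 was therefore opposite in the 2 quantifications.

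**Figure D4:**
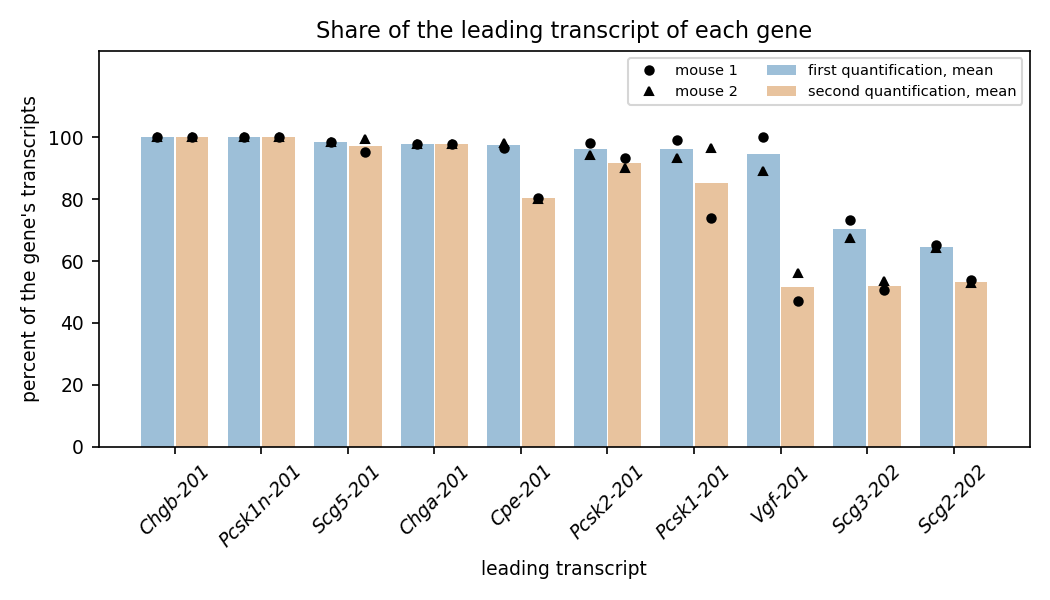
Percent of the gene taken by its leading transcript, with blue bars for the mean of the first quantification, orange bars for the mean of the second, circles for mouse 1 and triangles for mouse 2. Chga-201 and Scg5-201 lie above 95% in both, while Vgf-201 falls from a mean of 94.5% to 51.5% and Cpe-201 from 97.4% to 80.3%.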

How the data were processed

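Adrenal gland RNA was sequenced in 2 mice that form 1 group. Each library was directional and ribosome-reduced, from 300 ng of total RNA with ERCC spike-ins, per the labels. Per the deposited text files the tables use mm10 and GENCODE M21, and the first quantification was made from transcriptome alignments and the second from reads and a transcript index. What aligned and quantified the reads was not given in the sources used here. The deposited tables hold, per the file headers, expected counts (estimates, at times not whole), TPM, posterior mean TPM and FPKM, and the percent of the gene taken by each transcript. The posterior SD of each count is among the other deposited values, and interval bounds on the TPM scale, a signal column of the deposited gene tables, were not used. The mm10 reference is of another strain than CAST.

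Rows naming no gene (0.503% and 0.527% of counts) stayed out of library sizes. Counts of genes whose mean reached 10 were scaled with edgeR 4.0.16 under R 4.3.3 (TMM), and log2 ratios had a prior count of 2. Counts were rounded for the binomial test across all genes, adjusted at 0.05. Its self-test used simulated data. Other steps used Python 3.11.15, scipy 1.17.1, numpy 2.4.6, pandas 2.3.3 and matplotlib 3.10.9. Alternatives were other scalings (DESeq2 1.42.0), filters, a prior count of 0.5, FPKM, posterior means, rescaled TPM, the second quantification and each mouse alone.

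The members and lists were chosen with earlier results of these data known. The rule for named genes took all members, the 4 genes of highest mean TPM of each list, and transcripts with a share of at least 10%. Markers of cells other than chromaffin cells are given here by counts and ranges, and genes beyond the rule, and the minimums of 300 and 15000 counts, were chosen after their values were seen. With 2 libraries no genes were ranked by likeness of pattern.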

Additional observations from a re-analysis of the deposited data

How the results depend on the processing

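All 10 genes reached 1 TPM in both mice under every quantification and unit tried and in each mouse alone, and 6 reached 10 TPM in both. The summed level of 2020 TPM was 1894 TPM in the second quantification, 2147 in FPKM and 6560 TPM when rescaled to nuclear protein-coding genes, which changes the scale, and 1974 to 2066 TPM in single mice. The count of genes beyond counting noise was 5 under total count scaling, where Scg3 was not called, and 6 under the other scalings, filters and the second quantification. The count below 0 ran from 8 to 10, and the median log2 ratio from -0.22 under ERCC scaling to -0.15 under total counts. These ranges cover scaled counts alone. On TPM of the first quantification Scg5, Vgf, Pcsk1 and Pcsk2 stood higher in mouse 2. Chga, Chgb, Scg2, Scg3, Cpe and Pcsk1n stood lower there. The sign of the 2 genes nearest 0 was not stable. Vgf, at 0.0013, stood at -0.02 under ERCC scaling, -0.04 in the second quantification, -0.0037 under TMM over protein-coding genes, -0.00278 at a mean of at least 100 counts and -0.00405 without a filter, and Pcsk1 stood at -0.01 under ERCC scaling. Under the second quantification 7 of 10 TPM levels changed by over 1 SD between mice, as did 8 of 10 leading transcript shares and 9 of 12 ratios between genes. That SD comes from 2 mice, so small changes pass it where the mice lie close. The share of Chga-201 passed it from 97.78% to 98.0%, and the Pcsk1n to Pcsk1 ratio did not from 1.87 to 1.48. These counts therefore do not measure the size of the changes. No paired analysis was possible because there was 1 group. With 2 mice, no search for a library far from the others could be made, and Vgf, Pcsk2 and Scg5 have too few counts for ratios near 0 to be told from it.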
